A study of Mus musculus with 8 samples.

Results

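The OAS and IFIT antiviral effectors are 2 families of interferon-stimulated genes, described here across 8 mouse heart libraries. The members were the rows of the deposited table with the symbols Oas1a, Oas2, Oas3, Oasl1, Oasl2, Ifit1, Ifit2, Ifit3 and Ifit3b, and each of the 9 was found among 22173 genes. All hearts came from C57BL/6J mice whose left anterior descending (LAD) artery had been tied off, a model of myocardial infarction. In 4 libraries the treatment label was DAPA, the usual short form of dapagliflozin, an inhibitor of the kidney glucose transporter SGLT2, dosed daily at 1 mg/kg over the 4 weeks that followed the operation. In the other 4 libraries it was vehicle. No unoperated group was part of the comparison, the labels name the tissue as heart without a region, and age and sex are not stated. The labels do not say that each library came from its own animal, so p-values measure the spread between these libraries.

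OAS proteins are sensors of double-stranded RNA. The active enzymes join ATP into short oligoadenylates, which act as a signal in the antiviral response. OASL proteins are relatives with a ubiquitin-like tail. IFIT proteins are built from tetratricopeptide repeats and hold back the translation of foreign RNA, often as complexes with one another. Both families are switched on by type I interferon through the transcription factor complex ISGF3, which binds the interferon-stimulated response element (ISRE) in promoters. In infarcted hearts a set of macrophages is known to express such genes.

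The start regions are shown because they hold the element by which these families are known to be induced. RefSeq windows of build GRCm38.p6, from 250 bases before to 50 after each transcription start, were matched by symbol for 8 members, and Oas2 had no entry. The capitals mark the ISRE core, which is GAAA, then 2 bases of any kind, then GAAA, searched on both strands. In the IFIT genes it lies on the opposite strand and so reads TTTC, 2 bases, TTTC in the printed lines. The windows of Ifit1, Ifit3, Ifit3b and Oas1a carry the core, Oas1g is the near copy of Oas1a, and Oasl2, the member with the lowest p-value below, carries none.
Ifit1, chr19:34640639-34640938, plus strand: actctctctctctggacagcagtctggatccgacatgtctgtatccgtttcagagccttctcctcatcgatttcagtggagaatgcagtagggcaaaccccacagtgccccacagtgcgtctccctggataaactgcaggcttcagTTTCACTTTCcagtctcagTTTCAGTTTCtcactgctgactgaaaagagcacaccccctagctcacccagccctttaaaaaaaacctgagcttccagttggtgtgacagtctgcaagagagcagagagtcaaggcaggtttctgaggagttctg
Ifit3, chr19:34583279-34583578, plus strand: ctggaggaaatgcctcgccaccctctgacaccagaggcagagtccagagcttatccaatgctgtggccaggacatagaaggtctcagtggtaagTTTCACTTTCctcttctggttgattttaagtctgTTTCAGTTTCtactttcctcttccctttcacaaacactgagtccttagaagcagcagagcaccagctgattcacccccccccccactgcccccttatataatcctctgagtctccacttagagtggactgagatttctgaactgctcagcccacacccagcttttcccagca
Ifit3b, chr19:34607707-34608006, plus strand: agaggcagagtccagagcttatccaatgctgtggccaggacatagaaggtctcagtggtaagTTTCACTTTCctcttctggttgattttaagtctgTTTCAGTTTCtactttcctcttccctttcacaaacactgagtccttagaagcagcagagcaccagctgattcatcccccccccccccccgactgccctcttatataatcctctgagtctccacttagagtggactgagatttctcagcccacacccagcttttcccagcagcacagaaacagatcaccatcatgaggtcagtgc
Oas1a, chr5:120907476-120907775, minus strand: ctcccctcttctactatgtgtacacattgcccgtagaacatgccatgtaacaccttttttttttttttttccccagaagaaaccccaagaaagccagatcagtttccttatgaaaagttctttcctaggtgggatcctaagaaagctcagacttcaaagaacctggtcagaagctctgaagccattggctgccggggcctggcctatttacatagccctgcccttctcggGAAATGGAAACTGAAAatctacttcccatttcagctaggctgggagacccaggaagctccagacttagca
Oas1g, chr5:120887564-120887863, minus strand: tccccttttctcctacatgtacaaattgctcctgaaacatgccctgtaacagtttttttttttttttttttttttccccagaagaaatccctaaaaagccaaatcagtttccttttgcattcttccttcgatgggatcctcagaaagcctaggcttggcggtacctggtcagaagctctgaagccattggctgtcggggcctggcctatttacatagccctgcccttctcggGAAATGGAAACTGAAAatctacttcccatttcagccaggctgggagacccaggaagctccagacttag
Oasl2, chr5:114896684-114896983, plus strand: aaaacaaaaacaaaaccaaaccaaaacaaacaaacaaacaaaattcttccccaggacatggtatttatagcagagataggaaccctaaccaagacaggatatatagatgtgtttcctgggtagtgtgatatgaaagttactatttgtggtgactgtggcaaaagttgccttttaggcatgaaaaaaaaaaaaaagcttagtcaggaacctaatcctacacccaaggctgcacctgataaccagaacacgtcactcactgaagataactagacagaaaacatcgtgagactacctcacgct

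The core was found in 5 of the 8 members with a window, namely Ifit1, Ifit3, Ifit3b, Oas1a and Oas3. Among all 27025 genes with a window 1079 (3.99%) held it, and among the tested genes with a window 341 of 9192 (3.71%) did. A longer form, which adds CT to the end of the core and so always overlaps it, was present in 4 of the 8 members and in 0.303% of all genes with a window. In Ifit1 the matches lay at -104 to -95 and at -85 to -76, counted from the start base as 1 with no 0. In Ifit3 they lay at -156 to -147 and at -122 to -113, and in Ifit3b the same letters lay farther out, at -188 to -179 and at -154 to -145. In Oas1a the 2 matches overlapped, at -20 to -11 and at -14 to -5. The windows of Ifit2, Oasl1 and Oasl2 held no core, which says that these letters are not in those 300 bases. The interferon gamma element GAS, spelled TTCNNNGAA and also searched on both strands, matched in Ifit2 and Oas1a, against 9.55% of all genes with a window. The letters TATAAA, searched on both strands, matched only in Oasl2 among the 8 members, on the opposite strand at -187 to -182, against 15.7% of all genes with a window. Beyond the members, the core was present in 4 of 6 other OAS and IFIT genes with a window, namely Oas1c, Oas1g, Ifit1bl1 and Ifit1bl2. Of these, Oas1g fell with DAPA, and no fall was shown for Oas1c, Ifit1bl1 or Ifit1bl2. The longer form was present in 3 of the 6. The core was also present in 11 of 27 other interferon-stimulated effectors and in 7 of 11 genes linked to interferon gamma. A match is a description of letters and not a bound site. The windows of Ifit3 and Ifit3b were equal at 201 of 268 aligned bases (75.0%, without gaps), so they are not independent examples.

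**Figure D1:**
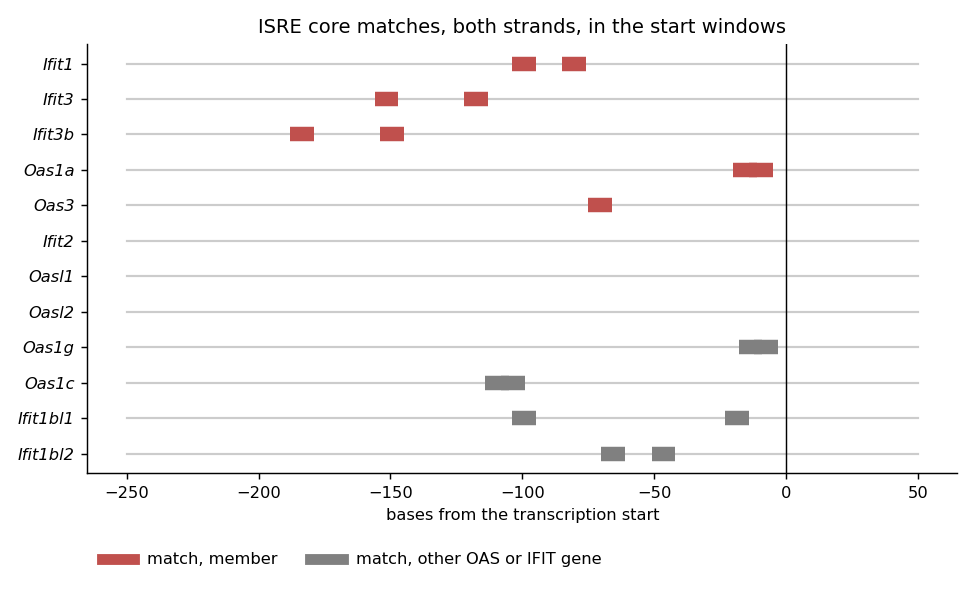
Positions of the ISRE core (horizontal axis, bases from the transcription start; rows, genes of the OAS and IFIT families with a window that is discussed) as bars drawn to scale, red for members and grey for other family genes. Ifit1bl1, Ifit1bl2 and Ifit2 have 2 annotated starts, drawn on 1 line, and the rows of Ifit2, Oasl1 and Oasl2 hold no match.

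Levels are given in FPKM, fragment counts scaled by transcript length and by library size, so they are per length and can be set side by side between genes. The reads behind them, recovered from the steps of the FPKM values, came to 25372593 to 26751337 per DAPA library and 24939013 to 26768206 per vehicle library. Changes were tested with limma-trend on log2(FPKM + 1), with Benjamini-Hochberg adjustment over the 11496 genes whose mean reached 1 FPKM in a group, at an adjusted p of 0.05. A log2 change is DAPA minus vehicle on that scale, which understates the change of genes with low values.

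Every member was lower with DAPA, and in each of the 9 the DAPA libraries lay below every vehicle library. Together the members summed to 55.5 ± 2.95 FPKM in DAPA and 100.2 ± 2.89 FPKM in vehicle libraries (SD, n = 4 each), a ratio of 0.553. The OAS members summed to 22.2 ± 1.24 FPKM in DAPA and 44.6 ± 1.45 FPKM in vehicle libraries. The IFIT members summed to 33.3 ± 1.90 FPKM in DAPA and 55.7 ± 1.52 FPKM in vehicle libraries. Of the 8 members that passed the filter on low values, 8 fell, where 8.75% of all tested genes were called lower, 9.62% higher and 18.4% in either direction. The members were chosen with earlier results of these data known, so these shares do not test the members as a set. The 9th, Oas3, was under the filter in both groups. Libraries did not overlap, with DAPA lower, in 9.99% of the tested genes, and in 7.43% of the 17356 genes with a read in any library. The median log2 change was -0.79 over the 8 members and 0.01 over all tested genes. Because these are whole-tissue libraries, fewer cells of a type and less RNA per cell cannot be told apart in any of these values.

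Atrial muscle transcripts moved with the groups too, and their part in the members' fall was not tested. Of 10 atrial markers 10 rose, with a median log2 change of 2.86, and in each of them every DAPA library was above every vehicle library. Their sum, mostly Nppa, ran from 12960 to 13670 FPKM in DAPA and from 8114 to 9058 FPKM in vehicle libraries. The more specific markers were close to absent with vehicle. Sln, which encodes sarcolipin, averaged 312.4 ± 19.1 FPKM in DAPA and 0.278 ± 0.410 FPKM in vehicle libraries. Myl7, the atrial light chain of myosin, averaged 603 ± 27.8 FPKM in DAPA and 1.339 ± 1.103 FPKM in vehicle libraries. The 2 groups thus differed in how much atrial transcript they held, while the labels name only heart.

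**Figure D2:**
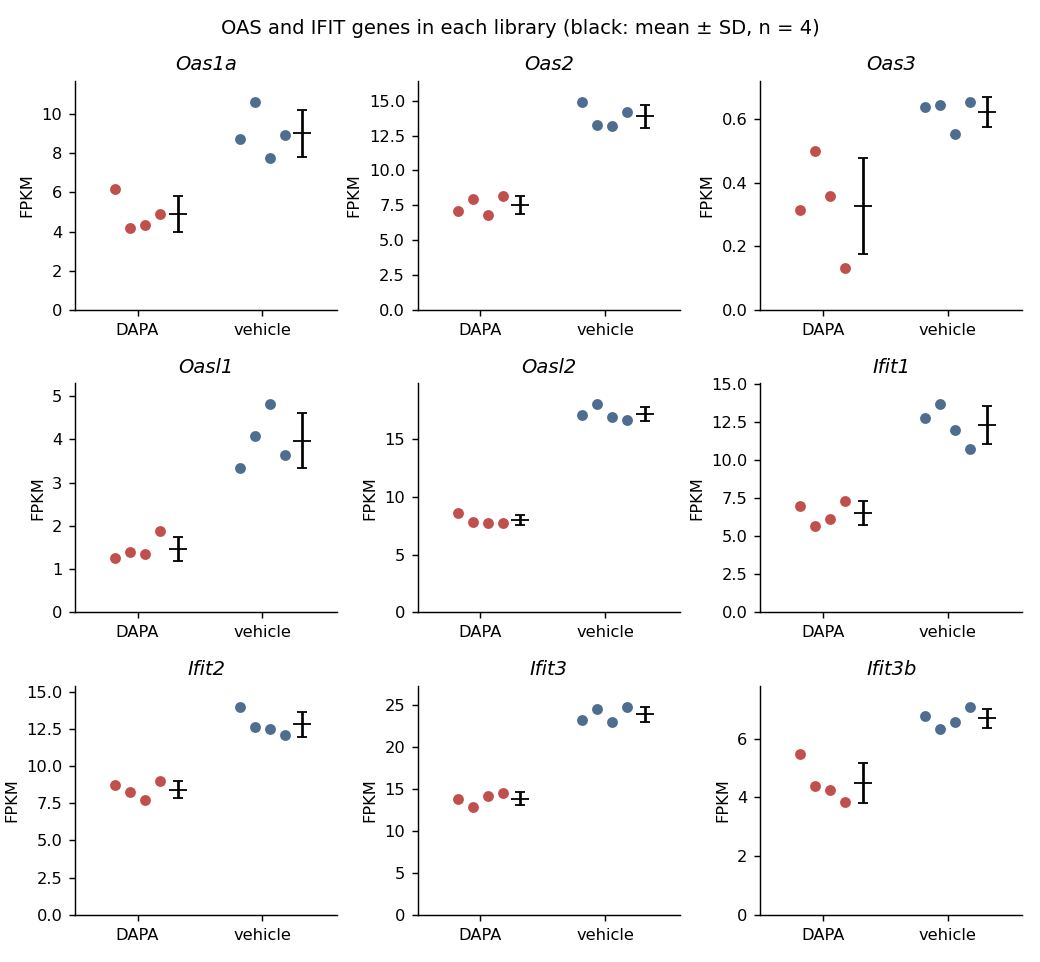
FPKM of each member (vertical axes, from 0, a scale of its own per gene) in the 4 DAPA libraries (red, left) and the 4 vehicle libraries (blue, right), with mean ± SD in black. In each of the 9 panels the highest DAPA library is below the lowest vehicle library.

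Oas1a (gene ID 246730), an oligoadenylate synthetase, measured 6.16, 4.18, 4.32 and 4.91 FPKM in the DAPA libraries and 8.74, 10.6, 7.75 and 8.90 FPKM in the vehicle libraries. The groups were apart, and DAPA library 1 was the nearest to them. Oas1a averaged 4.892 ± 0.901 FPKM in DAPA and 8.997 ± 1.19 FPKM in vehicle libraries (log2 change -0.77, SE 0.10, limma adjusted p = 1.7e-04). Oas2 (gene ID 246728), a larger synthetase with a repeated catalytic unit, measured 7.12, 7.95, 6.81 and 8.17 FPKM in the DAPA libraries and 14.9, 13.3, 13.2 and 14.2 FPKM in the vehicle libraries. Even the highest DAPA library was well below the lowest vehicle library, and the mean with DAPA was 54.1% of that with vehicle (log2 change -0.81, SE 0.061, limma adjusted p = 9.8e-07).

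Oas3 (gene ID 246727), the synthetase with the longest chain, had the fewest reads of the members. It measured 0.314, 0.501, 0.360 and 0.133 FPKM in the DAPA libraries and 0.640, 0.645, 0.553 and 0.655 FPKM in the vehicle libraries. The DAPA libraries were more scattered than the vehicle libraries, and the groups did not overlap. These values rest on 40, 66, 45 and 17 reads with DAPA and 82, 85, 68 and 85 reads with vehicle. The read ratio was 0.525, with a 95% exact (Clopper-Pearson) interval of 0.433 to 0.635 that covers counting error only. Without the filter Oas3 passed the test (log2 change -0.30, limma adjusted p = 0.041), and the change was -1.07 in limma voom on the recovered reads (SE 0.30, adjusted p = 0.020), an alternative chosen after seeing the data. In those settings 5.04% and 6.3% of the 17356 genes were called lower.

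The OASL genes had the largest log2 changes of the 8 tested members. Oasl1 (gene ID 231655), which in mouse cells represses translation of Irf7 and has no synthetase activity, measured 1.26, 1.40, 1.36 and 1.88 FPKM in the DAPA libraries and 3.34, 4.08, 4.81 and 3.63 FPKM in the vehicle libraries. DAPA library 4 was the highest of its group and still far below the vehicle libraries. Oasl1 averaged 1.48 ± 0.279 FPKM in DAPA and 3.97 ± 0.639 FPKM in vehicle libraries, a 2.69-fold fall (log2 change -1.003, SE 0.099, limma adjusted p = 1.1e-05). In limma voom on reads, without the pseudocount, the change was -1.42.

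Oasl2 (gene ID 23962), the mouse relative that keeps synthetase activity, measured 8.619, 7.853, 7.738 and 7.691 FPKM in the DAPA libraries and 17.03, 17.98, 16.89 and 16.62 FPKM in the vehicle libraries. Both groups were narrow, with a coefficient of variation of 5.45% in DAPA and 3.46% in vehicle libraries, where counting error alone gives 3.93% in DAPA and 2.68% in vehicle libraries. Its log2 change of -1.01 (95% interval -1.12 to -0.91) was the 25th lowest of 11496 genes (limma adjusted p = 1.0e-08). Oasl1 stood at rank 27, and the other tested members at ranks 51 to 171 from the lowest.

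Ifit1 (gene ID 15957), which binds foreign RNA that lacks the methyl mark of a host cap, measured 7.01, 5.69, 6.10 and 7.32 FPKM in the DAPA libraries and 12.8, 13.7, 12.0 and 10.7 FPKM in the vehicle libraries. The groups were apart and each spread more than Oasl2 did. The log2 change of Ifit1 was -0.82 (SE 0.080, limma adjusted p = 1.1e-05), on 1794 reads in DAPA and 3377 reads in vehicle libraries. Ifit2 (gene ID 15958), known for promoting cell death and for limiting virus in neurons of mice, measured 8.73, 8.25, 7.71 and 8.99 FPKM in the DAPA libraries and 14.0, 12.6, 12.5 and 12.1 FPKM in the vehicle libraries. Its fall was among the smaller ones, to 65.8% of the vehicle level (log2 change -0.55, SE 0.057, limma adjusted p = 1.8e-05).

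Ifit3 (gene ID 15959), the most abundant member, measured 13.8, 12.8, 14.2 and 14.6 FPKM in the DAPA libraries and 23.3, 24.5, 23.0 and 24.8 FPKM in the vehicle libraries. The libraries of each group lay close together (log2 change -0.74, SE 0.046, limma adjusted p = 1.6e-07). Its near copy Ifit3b (gene ID 667370) measured 5.47, 4.38, 4.25 and 3.85 FPKM in the DAPA libraries and 6.76, 6.31, 6.58 and 7.08 FPKM in the vehicle libraries. DAPA library 1 came closest to the vehicle group, and the log2 change of Ifit3b, -0.49 (SE 0.079, limma adjusted p = 7.1e-04), was the smallest among the 8 tested members.

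In the DAPA libraries the order of levels was Ifit3, Ifit2, Oasl2, Oas2, Ifit1, Oas1a, Ifit3b, Oasl1 and Oas3, and each neighbouring pair from Ifit2 to Ifit3b overlapped. In the vehicle libraries the order was Ifit3, Oasl2, Oas2, Ifit2, Ifit1, Oas1a, Ifit3b, Oasl1 and Oas3. There Oas2 overlapped with Ifit2 and Ifit2 with Ifit1, and the other neighbours were apart. Oasl2 thus averaged 7.98 FPKM beside 8.42 FPKM for Ifit2 with DAPA, and 17.1 FPKM beside 12.8 FPKM with vehicle.

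Whether members fell by different amounts was tested on the difference of their log2 FPKM in each library, for 28 pairs of the 8 tested members. Oasl2 fell by 1.104 and Ifit2 by 0.604 on this scale without a pseudocount, a difference of -0.50 (SE 0.071). Oasl1 fell by 1.43 and Ifit3b by 0.59, a difference of -0.85 (SE 0.26). In 9 pairs, these among them, the exact two-sided permutation p was 0.0286, the smallest that 70 assignments of the libraries allow, and it was 0.0889 after adjustment over the 28 pairs. An adjusted p below 0.05 was out of reach unless most pairs tied at that smallest p, so this test neither shows a difference in size between members nor shows that there is none. The members without an ISRE core in their window had log2 changes on the FPKM + 1 scale of -0.55 (Ifit2), -1.003 (Oasl1) and -1.01 (Oasl2), and the tested members with one lay between -0.82 (Ifit1) and -0.49 (Ifit3b).

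**Figure D3:**
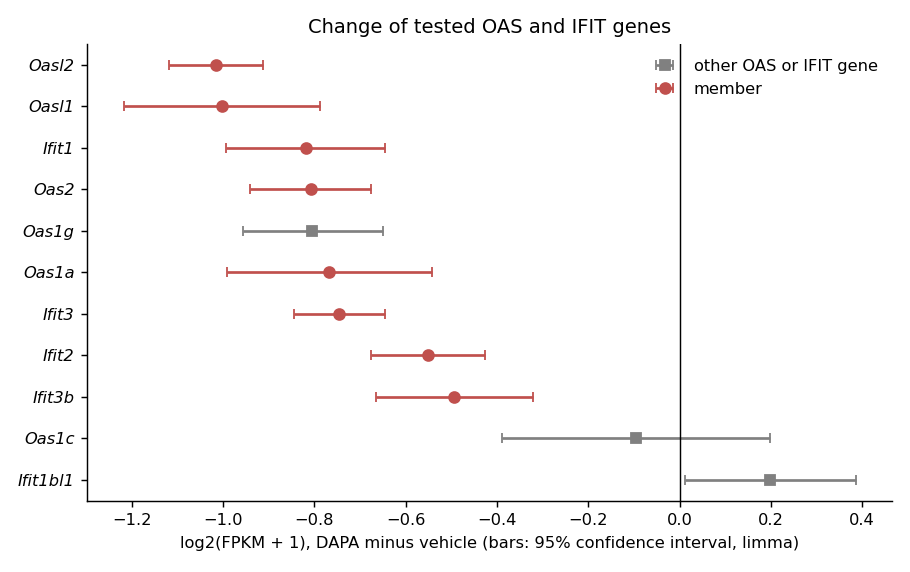
Change on log2(FPKM + 1), DAPA minus vehicle (horizontal axis), of the tested members (red circles) and the other tested OAS or IFIT genes (grey squares), with 95% confidence intervals from limma. The 8 members lie between -1.01 and -0.49, with Oas1c at -0.09 and Ifit1bl1 at 0.20.

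The rest of both families was split. Oas1g, a second active copy of Oas1a, measured 1.11, 1.19, 0.940 and 0.899 FPKM in the DAPA libraries and 2.54, 2.53, 2.77 and 2.36 FPKM in the vehicle libraries. It fell to 40.6% of the vehicle level (log2 change -0.80, SE 0.071, limma adjusted p = 4.1e-06; -1.30 in limma voom on reads). Oas1c averaged 1.12 ± 0.386 FPKM in DAPA and 1.24 ± 0.294 FPKM in vehicle libraries and did not pass (log2 change -0.09, 95% interval -0.39 to 0.20, limma adjusted p = 0.69). Oas1e and Oas1h were listed at 0 in each library. Oas1d and Oas1f were above 0 only in vehicle library 4, at 0.0874 and 0.0256 FPKM.

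The IFIT relatives Ifit1bl1 and Ifit1bl2 did not go down with the members. Ifit1bl1 averaged 1.19 ± 0.0641 FPKM in DAPA and 0.913 ± 0.213 FPKM in vehicle libraries (log2 change 0.20, limma adjusted p = 0.13). Each of its DAPA libraries was above every vehicle library, as in 12.1% of the tested genes. Ifit1bl2 measured 1.08, 0.887, 0.830 and 1.19 FPKM in the DAPA libraries and 0.685, 0.865, 0.690 and 0.586 FPKM in the vehicle libraries. It was under the filter, its groups overlapped, and its adjusted p was 0.086 without the filter and 0.14 in limma voom on all reads. Ifit1 and Ifit1bl2 are read in opposite directions, and an annotated start of Ifit1bl2 lies 146 bases from that of Ifit1. Both ISRE cores of the Ifit1 window printed above lie in the window of that Ifit1bl2 start too. The window of the other annotated Ifit1bl2 start holds no core, and values per gene do not say which start was used. The ratio of Ifit1 over Ifit1bl2 was 6.51, 6.41, 7.34 and 6.17 in the DAPA libraries and 18.6, 15.8, 17.3 and 18.3 in the vehicle libraries. These ratios did not overlap. The pair was picked after its values were seen, and the difference was not tested.

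Near copies limit how firmly single members can be read. Of the windows of 150 bases, the read length, in the annotated coding transcripts of GENCODE M21, 31.7% of those of Oas1a occur unchanged in Oas1g, and 18.5% of those of Ifit3 occur in Ifit3b. Ifit1 shares 1.24% with Ifit1bl2, and Oas2, Oas3, Oasl1, Oasl2 and Ifit2 share none with another OAS or IFIT gene. The sources used here do not say how reads that match 2 genes were counted. The copies added together were lower in the same way. Ifit3 plus Ifit3b came to 18.4 ± 0.851 FPKM in DAPA and 30.6 ± 1.02 FPKM in vehicle libraries, and Oas1a plus Oas1g to 5.93 ± 0.926 FPKM in DAPA and 11.5 ± 1.12 FPKM in vehicle libraries. The ratio of Ifit3 over Ifit3b overlapped between groups, at 3.15 ± 0.542 in DAPA and 3.58 ± 0.203 in vehicle libraries.

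The members lie in 3 clusters, Oas1a, Oas2 and Oas3 in one and Oasl1 with Oasl2 in another on chromosome 5, and the IFIT genes on chromosome 19. Of the 2 nearest tested protein-coding genes on each side of each cluster, in the order of RefSeq, 11 of 12 did not pass the test. Among all tested genes 18.4% passed in either direction. The flanking gene that passed was Lipa, a lysosomal lipase near Ifit2, at 20.3 ± 1.65 FPKM in DAPA and 23.5 ± 1.19 FPKM in vehicle libraries (log2 change -0.20, limma adjusted p = 0.023, and up to 0.066 over its alternatives). Rpl6, near the OAS cluster, did not pass, though each DAPA library was below every vehicle library (log2 change -0.13, limma adjusted p = 0.080, and down to 0.0058 over its alternatives). Ptpn11, a phosphatase beside the OAS cluster, had a log2 change of 0.06 (adjusted p = 0.30). These flanking genes were chosen by position, after the members' values were known.

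Other genes of the interferon pathway were read from lists that share no gene with the members. These lists too were chosen with earlier results of these data known. Over the 81 tested genes of these lists 52 fell and 2 rose. Part of the receptor and factor list fell. Ifnar1, the first chain of the type I interferon receptor, averaged 8.60 ± 0.414 FPKM in DAPA and 8.60 ± 0.551 FPKM in vehicle libraries. Irf7, the factor that amplifies interferon production, fell to 26.2 ± 1.23 FPKM in DAPA, against 42.4 ± 2.03 FPKM in vehicle libraries (limma adjusted p = 2.6e-07). The ISGF3 subunits Irf9 and Stat2 fell to 14.7 ± 0.806 and 9.78 ± 0.522 FPKM in DAPA, against 23.8 ± 0.682 and 16.2 ± 1.38 FPKM in vehicle libraries. Of these 15 genes 6 fell and 1 rose, with a median log2 change of -0.06. Usp18, which shuts down the receptor, was among those that fell (-0.68, limma adjusted p = 3.5e-05), and the 1 that rose was Socs3, a feedback inhibitor of cytokine receptors (0.26, adjusted p = 0.0090).

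Sensors of foreign nucleic acid also fell in part, with 7 of 14 lower, 1 higher and a median log2 change of -0.18. Zbp1, a sensor of Z-form nucleic acid, fell to 1.82 ± 0.341 FPKM in DAPA, against 4.12 ± 0.491 FPKM in vehicle libraries (log2 change -0.86, limma adjusted p = 2.4e-05). Eif2ak2, the kinase PKR, and Adar, an RNA editing enzyme, had log2 changes of -0.51 and -0.49. Ddx58, which encodes the RNA sensor RIG-I, had a change of -0.30. Sting1, the adaptor of DNA sensing, was the 1 that rose (0.26, limma adjusted p = 0.0045).

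Among 32 other interferon-stimulated effectors 27 fell and none rose, 32 of 32 changes being negative, with a median log2 change of -0.43. Isg15, a ubiquitin-like modifier, fell to 16.1 ± 1.81 FPKM in DAPA, against 33.4 ± 2.37 FPKM in vehicle libraries (log2 change -1.01, limma adjusted p = 3.7e-07). Ifi207, of the family of DNA-binding PYHIN proteins, had a change of -0.96, and Bst2 (tetherin) and Lgals3bp changes of -0.48 and -0.49. Genes linked to interferon gamma fell as well, 11 of 13 with a median of -0.32, among them Gbp3, a guanylate-binding protein (-0.68), the immunity-related GTPases Irgm2 (-0.55) and Igtp (-0.53), and the immunoproteasome subunit Psmb8 (-0.35). Interferon transcripts themselves were not detectable at this depth for most genes. Of 10 interferon genes 8 were listed at 0, and Ifnb1 was above 0 in vehicle libraries only. Ifng came out at 1 read in DAPA and 3 reads in vehicle libraries, the smallest whole numbers that fit.

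**Figure D4:**
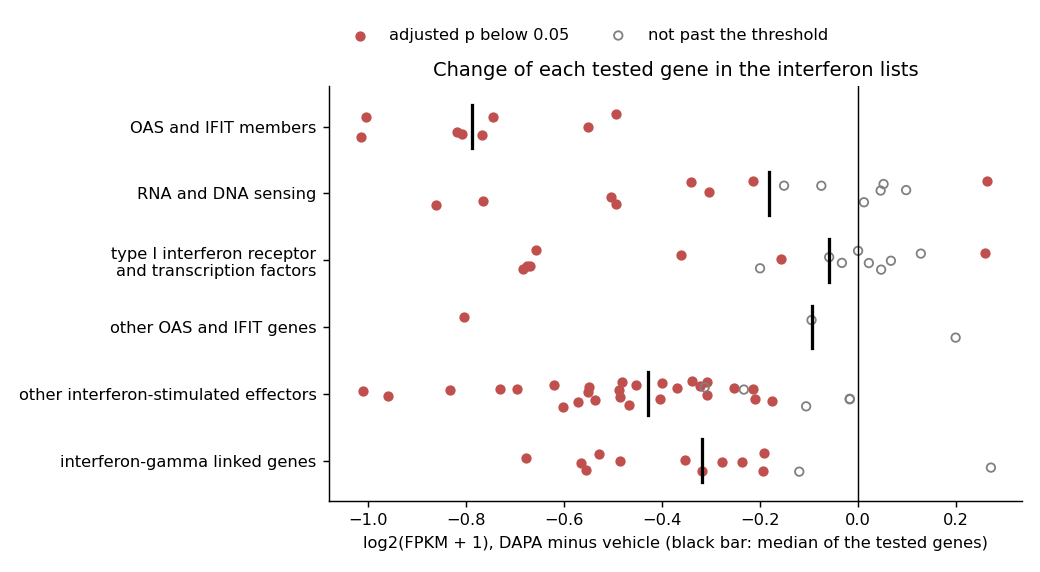
Change on log2(FPKM + 1), DAPA minus vehicle (horizontal axis), of each tested gene in the members and 5 other lists (rows), filled where the limma adjusted p is below 0.05 and open where not, with the median of each row as a black bar. The medians run from -0.79 in the members to -0.06 in the receptor and transcription factor list.

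The libraries also differed in markers of cell types, and the part of these differences in the results above was not tested. Ventricular muscle markers were present in each library, with a summed level of 28310 to 30230 FPKM in DAPA and 30780 to 31370 FPKM in vehicle libraries. Of the 8 tested, 2 fell, Actc1 (log2 change -0.27, limma adjusted p = 7.5e-06) and Myl2 (-0.15, adjusted p = 0.007), and none rose. Adipocyte markers fell in 7 of 7 tested cases, with sums of 69.0 to 110.1 FPKM in DAPA and 311 to 426 FPKM in vehicle libraries. Of 16 macrophage and monocyte markers 6 rose and 3 fell, with overlapping sums of 1067 to 1158 FPKM in DAPA and 997 to 1196 FPKM in vehicle libraries. Plac8, a monocyte transcript, fell (log2 change -0.80, limma adjusted p = 1.3e-05), and Csf1r, the receptor for the growth factor CSF1, rose (0.20, adjusted p = 0.0017). Of the 7 B and plasma cell markers found, 4 were tested and 2 fell, with sums of 4.996 to 7.122 FPKM in DAPA and 11.77 to 19.2 FPKM in vehicle libraries, while Ms4a1 and Pax5 stayed under 1 FPKM in each library. The 2 were Jchain, with means of 1.57 FPKM in DAPA and 8.45 FPKM in vehicle libraries (limma adjusted p = 8.4e-07), and Cd79b (adjusted p = 0.014). Cd79a and Mzb1 did not pass (limma adjusted p of 0.11 and 0.39). T and NK cell markers summed to 3.37 to 3.99 FPKM in DAPA and 2.31 to 4.24 FPKM in vehicle libraries. Of 7 markers of plasmacytoid dendritic cells, which make much of the type I interferon in blood, 3 were tested and 2 fell, with sums of 78.8 to 85.8 FPKM in DAPA and 111 to 118 FPKM in vehicle libraries. Those that fell were Bst2, itself an interferon-stimulated gene that makes up most of the sum (-0.48, limma adjusted p = 6.2e-07), and Ly6d (-0.57, adjusted p = 0.0089). Siglech, a defining marker of these cells, was under 1 FPKM in each library. Endothelial markers rose in 7 of 9 cases, Vwf among them (0.59, limma adjusted p = 3.2e-07), and 1 fell, Fabp4, which adipocytes also express. Their sums were 1719 to 1752 FPKM in DAPA and 1857 to 1970 FPKM in vehicle libraries. Fabp4 made up most of these sums, with means of 1102 FPKM in DAPA and 1361 FPKM in vehicle libraries. Of 8 fibroblast markers 4 fell, the collagen gene Col3a1 among them (-0.47), and 1 rose, Tcf21 (0.61), with sums of 1825 to 1980 FPKM in DAPA and 1993 to 2063 FPKM in vehicle libraries. Of 7 neutrophil markers 3 were tested and none passed (limma adjusted p of 0.081 to 0.12, and 0 passing in limma voom on reads). Of their changes 3 of 3 were negative and at an unadjusted limma p below 0.05. Over the alternatives the limma adjusted p ran from 0.0027 to 0.21 for S100a8, 0.01 to 0.28 for S100a9 and 0.08 to 0.27 for Csf3r. Neutrophil marker sums were 3.88 to 6.17 FPKM in DAPA and 7.70 to 9.76 FPKM in vehicle libraries. Immediate early and heat shock genes were higher in 6 of 7 cases, with sums of 103 to 109 FPKM in DAPA and 84.4 to 88.1 FPKM in vehicle libraries.

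The authors' deposited table gives the same direction for each member. Its ratio of DAPA over vehicle ranges from 0.369 for Oasl1 to 0.666 for Ifit3b, and its largest q-value among the 9 is 0.00914, for Oas3. In the authors' deposited table, 8.65% of the 15527 genes with a ratio have a q-value below 0.05 and a ratio below 1.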

How the data were processed

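mRNA of 8 heart libraries was sequenced as 150-base pairs from a strand-specific kit, and Trimmomatic removed low-quality reads, per the labels' protocols. HISAT2, SAMtools, StringTie, Cufflinks, HTSeq and DESeq are listed, without roles, in the submitters' processing notes, which also name GRCh38, a human build, although the symbols are those of mouse genes. No coordinates are therefore given for the deposited values. The library columns carry no unit in the header. They were read as FPKM, computed by the authors per library, because each value is a whole multiple of the worth of 1 read, which depends on the gene and on the library. The deposited ratio (fold change) and q-value are the authors' own. The sources used here do not say whether counting used the strand, so antisense reads may be included.

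Whole reads came back for 17356 of 17356 genes above 0 (tolerance 0.0001 reads) and served for depth and for limma voom. The smallest whole numbers that fitted were taken, so a gene above 0 in a single library always comes out at 1 read. Tests used limma 3.58.1 in R 4.3.3 with a pseudocount of 1, on genes with a mean of at least 1 FPKM in a group, and the fit was tested on simulated data. Exact permutation tests used scipy 1.17.1. The members and gene lists were chosen with earlier results of these data known. The text names the members, the other OAS and IFIT genes in the table, up to 4 genes with the smallest p of each list, and 8 genes most like the members within groups. Named outside this rule, after their values were seen, were Ifnar1, Socs3, Sting1, Lipa, Rpl6, Ptpn11 and single marker genes. Alternatives were pseudocounts of 0.1 and 0.01, filters of none and 5 FPKM, median centring, quantile normalization, a replicate block, voom, and each library left out. Some background genes of the lists are not reported here.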

Additional observations from a re-analysis of the deposited data

Results flagged for a closer look

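Among 24 groups of 4 libraries examined, for the 9 members and the 3 other tested family genes, 2 held a library set apart from the other 3 by more than the 95% critical value of Dixon's test, where chance flags about 1 in 20 groups. In the vehicle libraries Oas3 measured 0.553 FPKM in library 3 and 0.640 to 0.655 FPKM in the others (Dixon ratio 0.853), on 68 reads in library 3. In the DAPA libraries Oas1c measured 0.538 FPKM in library 1, on 32 reads, and 1.29 to 1.32 FPKM in the others (Dixon ratio 0.953).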

How the results depend on the processing

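The 8 tested members kept their direction and their side of the threshold in 135 of 135 values over 17 alternatives. Their highest adjusted p was 0.0073, for Ifit3b without the filter on low values. The count of members called lower was 8 in each alternative except 9 without a filter (limma or voom) and 7 with a filter at 5 FPKM, which removes Oasl1. Leaving out 1 library at a time gave 1693 to 1892 genes called in either direction, against 2112 with 8 libraries, 8 members called lower, and 48 to 52 list genes called, against 54. Limma voom on recovered reads called 2575 genes. The labels state no pairing of same-numbered DAPA and vehicle libraries. Their deviations from the group means correlated at -0.055 to 0.014 over tested genes, which cannot show that nothing was shared. With the replicate number as a block, 1764 genes, 8 members and 52 list genes were called. Oas3, at 17 to 85 reads per library, is limited by depth. Its change was -0.30 on log2(FPKM + 1), a scale that understates changes at low values, and -1.07 in voom without a filter. Replicate libraries differed by more than sampling noise in each of the pairs compared, so none was counted as a repeat of another.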

Other observations

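Within groups the deviations of the members showed no clear common pattern. Over the 8 libraries, the correlation of 2 members' deviations from their group means had a median of 0.02 over 28 pairs, from -0.61 to 0.83, and 15 pairs were above 0. Counting error is part of these deviations, for Oasl2 in DAPA 3.93% beside a coefficient of variation of 5.45%. It lowers such correlations, so they cannot show that shared movement was absent. The mean deviation of the 8 tested members was small, from -0.07 to 0.07 on log2(FPKM + 1). The 8 genes whose deviations were most like that mean were Elmod2 (r = 0.98), Glt8d1 (0.98), Akr1e1 (0.97), Antxr1 (0.97), Col4a3 (0.96), Rasl2-9 (0.96), Ugcg (0.95) and Ppp4r2 (0.95), each over 8 libraries and picked from 11496 genes. None of them passed the test between DAPA and vehicle libraries (limma adjusted p of 0.10 to 0.62), and none is on the interferon lists. Among the alternatives, Antxr1 passed in limma voom on recovered reads (adjusted p = 0.039).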
